A study of Mus musculus with 9 samples.

Results

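Mcm2, Mcm3, Mcm4, Mcm5, Mcm6 and Mcm7, the subunits of the replicative DNA helicase, were all higher in RAW-FoxQ1 clones than in RAW-vector clones, by 1.79 to 2.41 on the log2 scale. Mcm10, Cdt1 and Gmnn were higher as well, and the level of Cdc6 did not differ beyond the spread between clones. These 10 genes of the MCM helicase and of origin licensing were taken by gene symbol, and each matched 1 of the 16492 gene rows on the arrays. No threshold on a measured value was applied to them, but the set was chosen with earlier results of these data known.

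RAW-264.7 is a murine monocyte/macrophage line. In the 5 RAW-FoxQ1 clones, cells carried the expression vector pEF6/V5-His TOPO with the coding fragment of mouse FoxQ1, a forkhead transcription factor. In the 4 RAW-vector clones, they carried the same vector without it. All 9 were stable clones grown from single cells under blasticidin at 6 µg/ml with no further treatment, and total RNA from each clone was read on an Affymetrix mouse array of its own. The vector drives its insert from a constitutive promoter, so the comparison is between clones of 1 line and not between induced and uninduced cells. The RAW-vector clones carry the numbers 4, 5, 6 and 7 and the RAW-FoxQ1 clones the numbers 7.1, 7.2, 7.3, 7.4 and 7.5, and the labels do not say whether the shared 7 has a meaning.

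Before a cell copies its DNA, each future start point of replication is licensed. The origin recognition complex marks the origin, and Cdc6 and Cdt1 then load the ring-shaped MCM hexamer onto the DNA in an inactive form. On entry into S phase, kinases together with Cdc45, the GINS complex and Mcm10 turn the loaded ring into a moving helicase, while geminin, the product of Gmnn, binds Cdt1 so that an origin is not licensed again in the same cycle. The MCM genes are textbook targets of the E2F transcription factors and are strongly expressed in dividing cells.

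The stretches of promoter that hold E2F words are shown because E2F factors are the known regulators of these genes. RefSeq promoters on build GRCm38.p6, each of 300 bases, were at hand for 8 of the 10 genes. The words TTTCCCGC, TTTCGCGC, TTTGCCGC and TTTGGCGC were searched on both strands. In the sequences below, written 5′ to 3′ along the strand of the gene, the capitals mark these words or their reverse complements.
Mcm3, chr1:20820266-20820294, minus strand: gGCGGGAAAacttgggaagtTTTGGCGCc
Mcm5, chr8:75109336-75109387, plus strand: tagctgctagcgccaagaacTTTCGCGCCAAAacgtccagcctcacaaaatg
Mcm6, chr1:128359725-128359835, minus strand: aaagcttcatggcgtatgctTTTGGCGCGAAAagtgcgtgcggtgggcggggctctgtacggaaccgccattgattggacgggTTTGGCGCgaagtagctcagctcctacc
Mcm7, chr5:138172021-138172068, minus strand: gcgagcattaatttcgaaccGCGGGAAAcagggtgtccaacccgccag
Cdc6, chr11:98907993-98908040, plus strand: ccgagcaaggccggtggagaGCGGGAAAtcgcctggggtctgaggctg
Cdt1, chr8:122568036-122568064, plus strand: ggaactaccttTTTGGCGCcatggcgcaa

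An E2F word lay in the promoters of 6 of the 8 genes, namely Mcm3, Mcm5, Mcm6, Mcm7, Cdc6 and Cdt1. Counted by promoter it lay in 6 of their 9, and in 2.26% of all 32851 promoters of the same length. The matches of Mcm3 and Cdt1 lay just downstream of the start site, and those shown for the other genes upstream of it. In Mcm5 and in the distal match of Mcm6, words on opposite strands overlap. A further Mcm7 match lay 16 bases downstream of the start and shared 1 base with a CCAAT word. No such word was found in the windows of Mcm2 and Mcm10. Of the genes with a word, Mcm3, Mcm5, Mcm6, Mcm7 and Cdt1 were called higher and Cdc6 was not. Mcm2 and Mcm10, without a word in their windows, were called higher as well. The part of these words in the changes was not tested.

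Other words were searched in the same windows. The word TTTGAA, known as the cell cycle genes homology region, was found in 1 of the 8 genes, Mcm2, against 17.9% of all promoters. CCAAT lay in 6 of the 8 genes, namely Mcm2, Mcm3, Mcm5, Mcm6, Mcm7 and Mcm10, and not in Cdc6 or Cdt1. Counted by promoter it lay in 7 of 9, against 37.4% of all promoters. TGTTTA, a core word of forkhead factors, lay in 1 of the 8, at a second annotated start of Mcm7, against 13.4% of all promoters. These matches describe letters in a window and not bound sites.

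Foxq1, the transfected gene, was checked first. Its log2 values were 7.01, 6.94, 6.99 and 6.95 in RAW-vector clones 4, 5, 6 and 7, and 7.33, 7.27, 7.44, 7.39 and 7.40 in RAW-FoxQ1 clones 7.1 to 7.5. Every RAW-FoxQ1 clone lay above every RAW-vector clone, which held for 17.3% of all genes. The log2 fold change was 0.39 (standard error 0.0403, limma adjusted p = 4.7e-05), a 1.31-fold difference at place 1845 among all 16492 genes. The group means were low, at the 35.6 percentile of all genes in RAW-vector and the 47.5 percentile in RAW-FoxQ1 clones. Whether the Foxq1 probes lie inside the cloned fragment was not checked. Of the macrophage markers, 10 of 10 were measured, with RAW-vector means between the 67.7 and 100 percentile of all genes, while the markers of T cells, B cells, fibroblasts, epithelial and endothelial cells lay between the 3.72 and 56.9 percentile. Among the macrophage markers 1 was called higher and 4 lower in RAW-FoxQ1 clones, Adgre1 by the most (log2 fold change -2.38). Of all genes 19.6% were called higher and 21.4% lower.

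Technical and metabolic measures were compared between the groups. The mean log2 value of 27 poly-A spike-in probe sets, bacterial RNAs added before labelling, was 8.41 to 8.70 in RAW-vector and 7.92 to 8.38 in RAW-FoxQ1 clones (difference -0.499, two-sided exact permutation p = 0.0159). Of 22 listed glycolysis and hypoxia genes 16 were measured. Their mean was 10.4 to 11.1 in RAW-vector and 9.3 to 10.3 in RAW-FoxQ1 clones. It was lower by 1.081 in RAW-FoxQ1 clones (exact permutation p = 0.0159). Of the 16 genes 13 were called lower, beside 21.4% of all genes. The 18S ribosomal RNA control was 12.4 to 13.6 in RAW-vector and 11.3 to 12.8 in RAW-FoxQ1 clones (difference -0.903, exact permutation p = 0.0714). The actin 3′ minus 5′ signal, a measure of RNA integrity, differed by -0.155 and the hybridization controls by -0.18 (exact permutation p = 0.0635 for both), so for these controls the groups did not differ past the threshold. Array values of all genes correlated at 0.988 to 0.998 among RAW-vector clones, at 0.981 to 0.997 among RAW-FoxQ1 clones and at 0.934 to 0.968 between the groups. The part of these measures in the results on licensing genes was not tested. Fits that hold the poly-A mean or the glycolysis and hypoxia mean as a covariate are given beside the results.

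Across all 16492 genes, limma at an adjusted p under 0.05 called 19.6% higher and 21.4% lower in RAW-FoxQ1 clones, and the median log2 fold change was -0.014. Against this background, 9 of the 10 licensing genes were called higher and 0 lower, with a median log2 fold change of 1.79. A call with a log2 fold change of at least 1 was made for 7 of the 10 and for 2.31% of all genes. In 9 of the 10 every RAW-FoxQ1 clone lay above every RAW-vector clone, which held for 17.3% of all genes. Each of these 9 genes reached an exact permutation p of 0.00794, the smallest that 5 clones against 4 allow. Because the set was chosen with earlier results known, its counts beside all genes are a description and not a test. In RNA from whole cultures, a larger share of cells in the phases that express these genes and more of their RNA in each cell cannot be told apart.

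**Figure D1:**
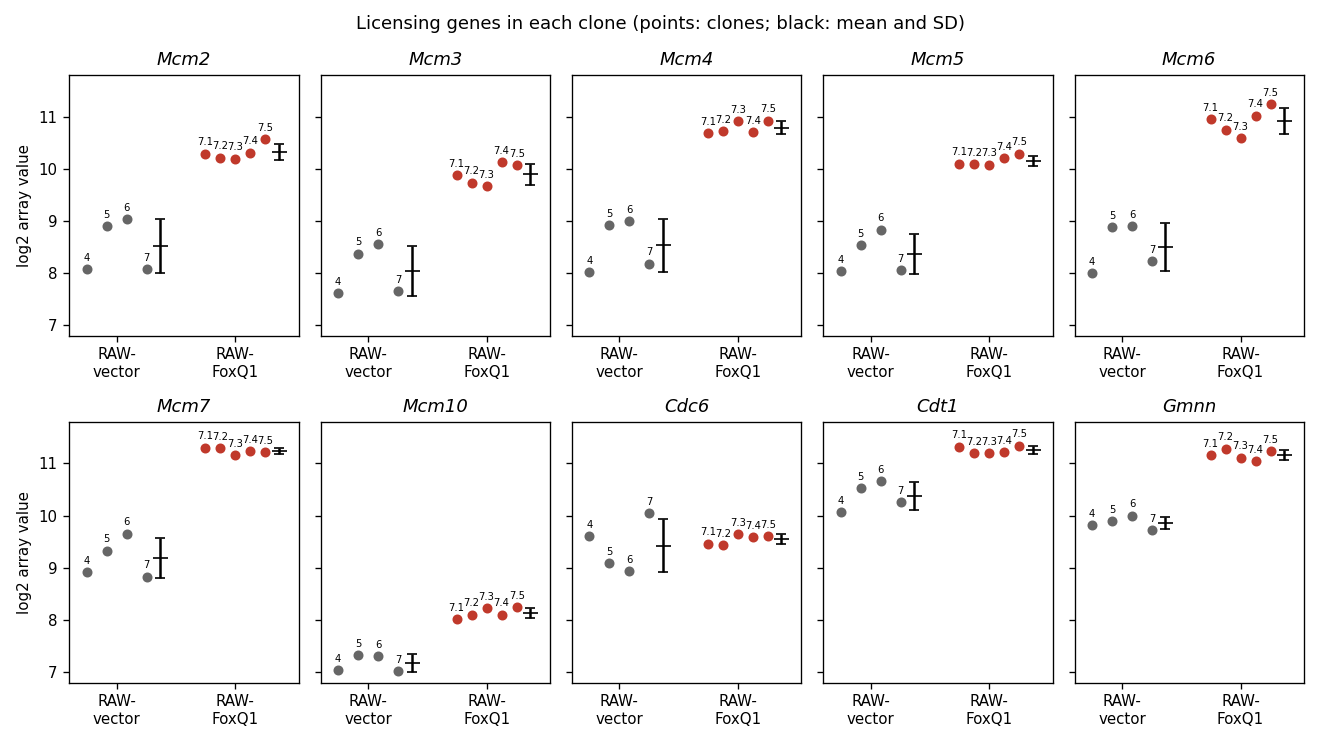
Log2 array value (vertical axis) of each of the 10 licensing genes in the 4 RAW-vector clones (grey) and the 5 RAW-FoxQ1 clones (red), 1 point per numbered clone, with the group mean and SD as black bars. The groups lie apart for 9 genes, while for Cdc6 the RAW-FoxQ1 clones lie within the range of the RAW-vector clones.

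The hexamer was described subunit by subunit. Mcm2, a subunit phosphorylated by the Cdc7 kinase and able to bind histones, had log2 values of 8.07, 8.90, 9.03 and 8.07 in RAW-vector clones 4, 5, 6 and 7, and of 10.29, 10.21, 10.19, 10.31 and 10.57 in RAW-FoxQ1 clones 7.1 to 7.5. RAW-vector clones 4 and 7 were low, clones 5 and 6 stood higher, and all of them lay below the lowest RAW-FoxQ1 clone by at least 1.15. The log2 fold change was 1.80 (95% confidence interval 1.33 to 2.27), a 3.48-fold difference (limma adjusted p = 0.00011).

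Mcm5, which neighbours Mcm2 at the gate through which DNA enters the ring, gave 8.04, 8.54, 8.83 and 8.06 in the RAW-vector clones and 10.10, 10.09, 10.08, 10.20 and 10.29 in the RAW-FoxQ1 clones. Its order of the RAW-vector clones was like that of Mcm2, with clones 4 and 7 below 5 and 6, and the gap between the groups was 1.25. The log2 fold change of 1.79 (standard error 0.153, limma adjusted p = 1.6e-05) was the smallest of the hexamer.

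Mcm3, the partner of Mcm5 in the ring, gave 7.62, 8.37, 8.55 and 7.65 in the RAW-vector clones and 9.88, 9.73, 9.66, 10.12 and 10.07 in the RAW-FoxQ1 clones. Clone 7.3 was the lowest and clone 7.4 the highest of the RAW-FoxQ1 clones, and the groups were separated by 1.11, the narrowest gap among the hexamer subunits. Its log2 fold change was 1.85 (standard error 0.204, limma adjusted p = 7.6e-05).

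Mcm4, Mcm6 and Mcm7 form the stable core of the helicase, and they had the largest increases of the hexamer. Mcm4 gave 8.02, 8.92, 9.0 and 8.18 in the RAW-vector clones and 10.68, 10.72, 10.91, 10.70 and 10.92 in the RAW-FoxQ1 clones. The gap between the groups was 1.68 and exceeded the whole range of the RAW-vector clones, 0.98. It rose by 2.26 on the log2 scale (95% confidence interval 1.81 to 2.70), a 4.78-fold difference (limma adjusted p = 1.9e-05).

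Mcm6 gave 8.0, 8.88, 8.90 and 8.23 in the RAW-vector clones and 10.95, 10.75, 10.59, 11.02 and 11.24 in the RAW-FoxQ1 clones. It had the widest range of the hexamer among RAW-FoxQ1 clones, 0.65, from clone 7.3 at the bottom to clone 7.5 at the top. Its log2 fold change of 2.41 (95% confidence interval 1.94 to 2.87), a 5.30-fold difference, was the largest of the 10 genes and ranked at place 18 among all 16492 genes (limma adjusted p = 1.6e-05).

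Mcm7 gave 8.91, 9.33, 9.65 and 8.83 in the RAW-vector clones and 11.30, 11.29, 11.16, 11.23 and 11.21 in the RAW-FoxQ1 clones. The RAW-FoxQ1 clones lay within 0.14 of each other, against a range of 0.82 in the RAW-vector clones. The log2 fold change was 2.06 (standard error 0.149, limma adjusted p = 6.4e-06), a 4.16-fold difference.

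Mcm10, which is no ring subunit and joins when the loaded helicase is activated, changed by less than any subunit of the hexamer. Its RAW-vector mean lay at the 42.5 percentile of all genes, against 60.2 to 79.1 for the subunits. The part of this lower signal in its smaller change was not tested. Its values were 7.04, 7.33, 7.30 and 7.02 in the RAW-vector clones and 8.02, 8.10, 8.22, 8.10 and 8.24 in the RAW-FoxQ1 clones. RAW-vector clones 4 and 7 again lay below 5 and 6, and the groups stood 0.69 apart. The increase was 0.96 on the log2 scale (95% confidence interval 0.785 to 1.14), or 1.95-fold (limma adjusted p = 1.2e-05).

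Of the loading factors, Cdt1 was called higher and Cdc6 was not called, and their changes were not tested against each other. Cdt1, which carries the hexamer to the origin, gave 10.07, 10.53, 10.66 and 10.25 in the RAW-vector clones and 11.32, 11.19, 11.19, 11.21 and 11.34 in the RAW-FoxQ1 clones. Its groups were 0.53 apart, less than the RAW-vector range of 0.59, and its log2 fold change was 0.87 (standard error 0.108, limma adjusted p = 0.00015), a 1.83-fold difference.

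Cdc6, the ATPase that loads the ring together with the origin recognition complex, gave 9.61, 9.09, 8.94 and 10.05 in the RAW-vector clones and 9.46, 9.43, 9.64, 9.59 and 9.61 in the RAW-FoxQ1 clones. RAW-vector clone 7 had the highest and RAW-vector clone 6 the lowest of all 9 values, so the RAW-FoxQ1 clones lay inside the RAW-vector range. The log2 fold change of 0.12 had a 95% confidence interval of -0.321 to 0.568 (limma adjusted p = 0.675, two-sided exact permutation p = 0.603). This interval does not show that Cdc6 was equal in both groups. Without RAW-vector clone 6 the value turned to -0.036, and without RAW-vector clone 7 it was 0.332 (limma adjusted p = 0.0927).

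Gmnn, the gene of the Cdt1 inhibitor geminin, gave 9.82, 9.89, 10.00 and 9.72 in the RAW-vector clones and 11.16, 11.28, 11.11, 11.04 and 11.23 in the RAW-FoxQ1 clones. The clones of each group lay close together, within 0.27 and 0.24, and the gap between the groups was 1.04. The log2 fold change of 1.30 (standard error 0.0653, limma adjusted p = 7.3e-07), or 2.47-fold, had the smallest adjusted p of the 10 genes.

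**Figure D2:**
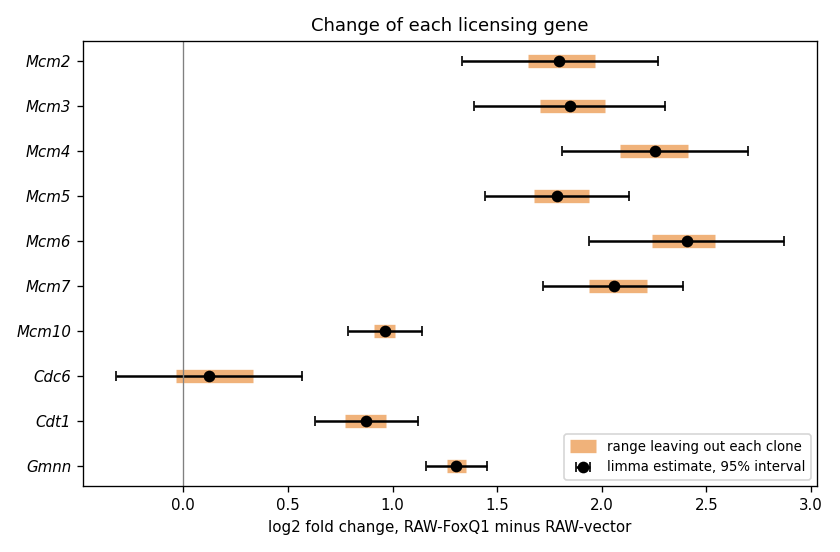
Log2 fold change, RAW-FoxQ1 minus RAW-vector (horizontal axis), of each licensing gene, with limma's 95% confidence interval as a black line and the range of values when each of the 9 clones was left out as an orange band. Mcm2 to Mcm7 lie between 1.79 and 2.41, Gmnn at 1.30, Mcm10 at 0.96, Cdt1 at 0.87, and only the interval of Cdc6 crosses 0.

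In the licensing genes the RAW-vector clones varied more than the RAW-FoxQ1 clones. Over all genes, arrays correlated at 0.988 to 0.998 among RAW-vector clones and at 0.981 to 0.997 among RAW-FoxQ1 clones. The SD among RAW-vector clones was the larger of the groups in 10 of 10 genes, and in the hexamer it lay between 0.382 and 0.519 (n = 4 clones) against 0.0592 to 0.252 (n = 5 clones). Clones 4 and 7 lay below clones 5 and 6 in 9 of the 10 genes, while Cdc6 ran the other way. The share of all genes with a larger RAW-vector SD or with this order of clones was not counted. Averaged over Mcm2 to Mcm7 and set against the RAW-vector mean, the clones stood at -0.41 (clone 4), 0.30 (clone 5), 0.47 (clone 6) and -0.35 (clone 7).

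The same averages in RAW-FoxQ1 clones were 2.01, 1.94, 1.91, 2.07 and 2.19 for clones 7.1 to 7.5. Clone 7.5 had the highest of all 9 values for 6 of the 10 genes, and clone 7.3 was the lowest RAW-FoxQ1 clone for 5 of the 9 called genes. The matching shares over all genes were not counted. The low RAW-vector clones also differed in other measures. The glycolysis and hypoxia mean was 11.05 in clone 4 and 11.06 in clone 7, against 10.60 in clone 5 and 10.43 in clone 6. The signal of the 18S ribosomal RNA control was 12.47 and 12.42 in clones 4 and 7, against 13.28 and 13.57 in clones 5 and 6. The part of these measures in the spread of the licensing genes was not tested.

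**Figure D3:**
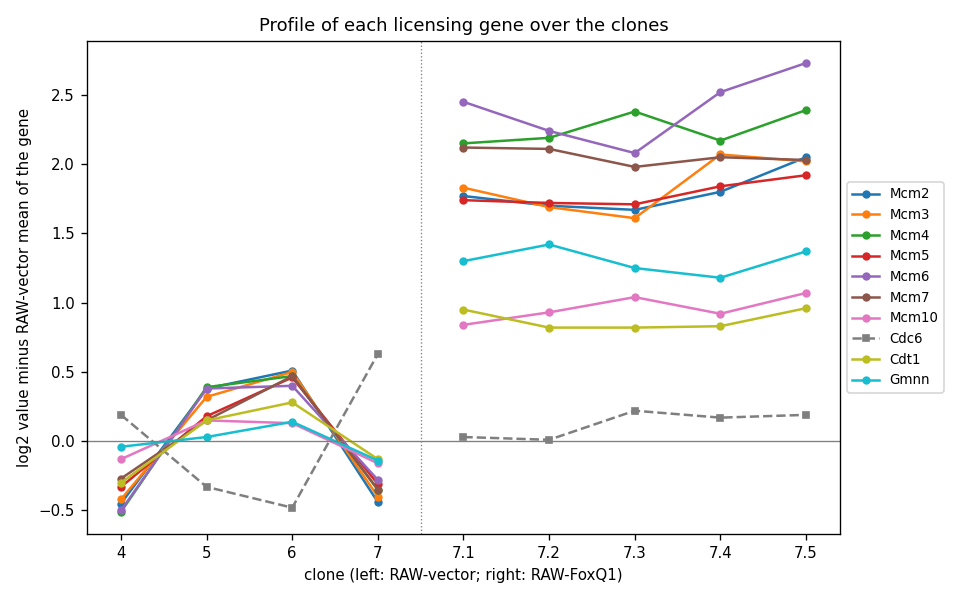
Log2 value minus the gene's RAW-vector mean (vertical axis) for each licensing gene in the 4 RAW-vector clones (left of the dotted line) and the 5 RAW-FoxQ1 clones (right). The lines of 9 genes dip in clones 4 and 7 and rise in clones 5 and 6, the dashed line of Cdc6 is the mirror of this, and Mcm2 to Mcm7 run above 1.5 in every RAW-FoxQ1 clone.

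Some calls changed in fits with a covariate taken from the arrays. Neither covariate overlapped between the groups, so these fits cannot separate the covariate from the group. The glycolysis and hypoxia mean was itself lower in RAW-FoxQ1 clones. A call lost in these fits is given as a value and not as a test of the covariate. With the poly-A mean of each array in the fit, 9 of the 10 genes were called higher, as were 8.86% of all genes. With the glycolysis and hypoxia mean in the fit, 7 of the 10 were called higher, as were 7.56% of all genes. There Mcm2 fell short of a call at 1.125 (limma adjusted p = 0.0663), as did Cdt1 at 0.614 (limma adjusted p = 0.08). Mcm3 stayed close to the threshold at 1.297 (limma adjusted p = 0.0483). The values of Mcm4, 1.47, and Mcm10, 0.606, were smaller by over 1.5 times than without the covariate, and those of Mcm5, Mcm6 and Mcm7 were 1.272, 1.948 and 1.702. Gmnn stood at 1.195. Cdc6 was at 0.523 with the poly-A mean and at 0.55 with the glycolysis and hypoxia mean, and was not called in either fit. All 9 genes were called whichever clone was left out.

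Whether the helicase subunits rose by equal amounts was tested with the difference between 2 genes within each array, in which any shift of a whole array cancels. Over 17 pairs, 15 of them among Mcm2 to Mcm7, the change was unequal for 9, of which 7 were hexamer pairs (two-sided exact permutation test, adjusted over the 17 pairs). Mcm6 rose by more than Mcm5 by 0.621 (standard error 0.111), by more than Mcm2 by 0.609 (standard error 0.0826) and by more than Mcm3 by 0.561 (standard error 0.0721). The exact adjusted p was 0.0193 for each. Centred on the RAW-vector mean, the Mcm5 minus Mcm6 difference was -0.20 to 0.17 in RAW-vector clones and -0.81 to -0.37 in RAW-FoxQ1 clones, so the groups did not overlap.

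Mcm4 also rose by more than Mcm5, by 0.470, and by more than Mcm2, by 0.458 (exact adjusted p = 0.0193 for both). It exceeded Mcm3 by 0.410, and Mcm7 exceeded Mcm5 by 0.273 (exact adjusted p = 0.03 for both). In each unequal hexamer pair the subunit with the larger increase was Mcm4, Mcm6 or Mcm7, and the other was Mcm2, Mcm3 or Mcm5. The split was not complete, since Mcm7 passed against Mcm5 only. Among Mcm2, Mcm3 and Mcm5 the differences were at most 0.060 in size and their RAW-FoxQ1 and RAW-vector ranges overlapped. For Mcm4 against Mcm6 the difference was -0.151 (standard error 0.128, exact adjusted p = 0.414), and for Mcm6 against Mcm7 it was 0.348 (standard error 0.148, exact adjusted p = 0.0981). Mcm2 minus Mcm7 was -0.261 (exact adjusted p = 0.0981) and Mcm3 minus Mcm7 was -0.212 (exact adjusted p = 0.18). Mcm4 minus Mcm7 was 0.198 (exact adjusted p = 0.208). These pairs did not pass, which does not show equal change. The array reports each gene through its own probes, and unequal response of probes to the same change in RNA was not tested.

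Geminin and its target were compared in the same way. Gmnn rose by 0.429 more than Cdt1 (standard error 0.105, exact adjusted p = 0.0193), and by 1.18 more than Cdc6 (standard error 0.318, exact adjusted p = 0.0193). The Cdt1 minus Gmnn difference, centred on its RAW-vector mean, was -0.27 to 0.14 in RAW-vector clones and -0.61 to -0.35 in RAW-FoxQ1 clones. The pair tests are limited by the number of clones. When 1 RAW-FoxQ1 clone is left out, 4 clones against 4 allow no exact p below 0.0286, and 0 of the 17 pairs passed without clone 7.1, 7.2, 7.3 or 7.4, against 10 without clone 7.5. With group medians in place of means, 0 of the 17 passed. The 9 unequal pairs kept their direction in all 81 fits that left out a clone.

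**Figure D4:**
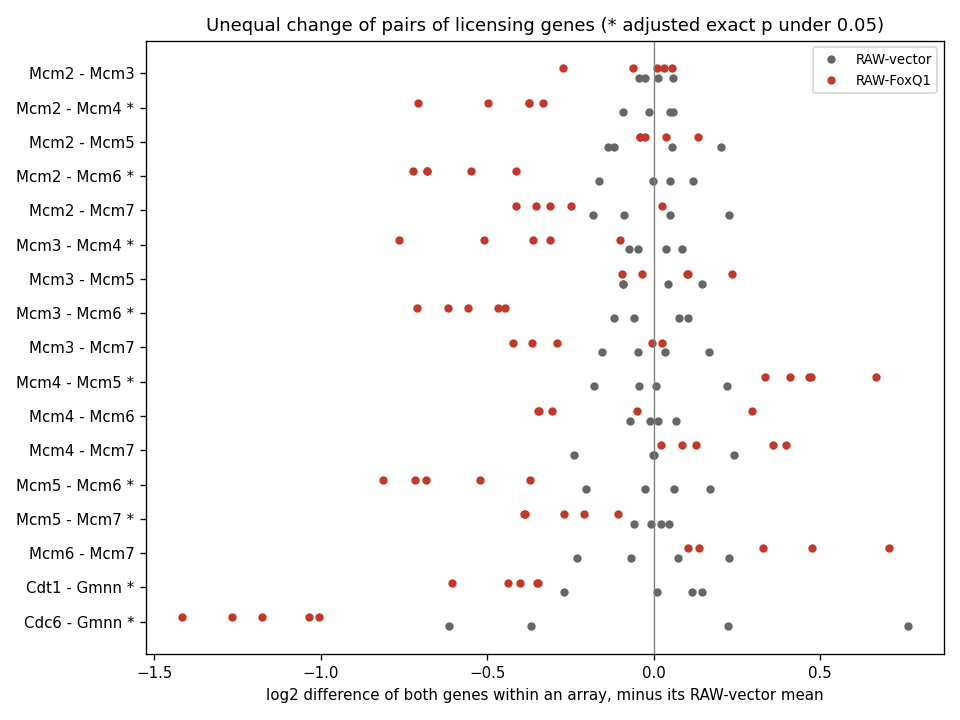
Log2 difference between the 2 genes of each of 17 pairs within an array, minus the RAW-vector mean of that difference (horizontal axis), for each RAW-vector clone (grey) and each RAW-FoxQ1 clone (red). Stars mark the 9 pairs with an exact adjusted p under 0.05, in each of which the red points lie clear of the grey ones.

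The other genes of the pathway were described from lists ordered by the steps of licensing. Over all genes 19.6% were called higher and 21.4% lower, the background for the counts of each list below. Relatives of the hexamer were uneven. Mcm8, a helicase of homologous recombination, lay between 7.10 and 7.23 in RAW-vector and between 8.39 and 8.61 in RAW-FoxQ1 clones, a log2 fold change of 1.36 (limma adjusted p = 1.8e-07). Mcmbp, which binds MCM subunits, rose by 0.40 (limma adjusted p = 0.00603), and Mcm9, the partner of Mcm8, stood at -0.06 and was not called.

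Of 7 genes of origin recognition, 4 were called higher and 0 lower, with a median log2 fold change of 0.285. Orc6 rose by 1.32, Orc2 by 1.12 and Orc1 by 0.70 on the log2 scale, and Lrwd1, which binds the complex at heterochromatin, by 0.285. Orc3 (0.19), Orc5 (0.18) and Orc4 (-0.01) were not called. Differences between the Orc genes were not tested. The median of this list was 0.285 and that of the hexamer 1.95, and the difference between the medians was not tested.

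Of 12 genes that activate the loaded helicase, 11 were called higher and 1 lower, with a median of 0.892. Gins1, a subunit of GINS, rose by 1.59, and Cdc45, which forms the active helicase with GINS and the ring, by 1.51. Topbp1 rose by 1.51 and Gins4 by 1.22. Cdc7 (0.86) and Dbf4 (0.92), the kinase and its activator that phosphorylate MCM subunits, were also called, and are named for that role after their values were seen. Gins3 was the exception. It lay between 8.61 and 9.19 in RAW-vector clones and between 8.10 and 8.51 in RAW-FoxQ1 clones, a log2 fold change of -0.69 (standard error 0.133, limma adjusted p = 0.00227), while the other GINS genes rose. With the poly-A or the glycolysis and hypoxia mean as a covariate no gene of the pathway was called lower.

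Of 13 genes that control licensing, 10 were called higher and 0 lower, with a median of 0.364. Ccna2, an S phase cyclin, rose by 2.83, from between 7.96 and 8.75 to between 11.1 and 11.2, and Ccne2, a cyclin of S phase entry, by 2.12. Fbxo5, whose product Emi1 restrains the ligase that degrades geminin, rose by 1.98, and Cks1b, a cofactor of the Skp2 ligase, by 1.64. Dtl (0.95) and Skp2 (0.30), substrate receptors of ligases that degrade Cdt1, were called too, as was Ccne1 (1.37), the other cyclin E gene, and these were likewise chosen by role after their values were seen. Cul4a (-0.17), Cul4b (0.23) and Kat7 (-0.01), a histone acetyltransferase that takes part in licensing, were not called.

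All 3 genes of helicase unloading, the step that strips the ring from finished DNA, were called higher. Lrr1 rose by 1.70, Traip by 0.59 and Cul2 by 0.199. Over the lists from the hexamer's relatives to unloading together, 30 of 38 genes were called higher and 1 lower. Of all genes 19.6% were called higher and 21.4% lower. The median was 0.746 against -0.014 over all genes. With a log2 fold change of at least 1, 14 of the 38 were called higher, beside 2.31% of all genes.

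Genes that act beside the helicase or later in the cycle were listed for scale. At the replication fork 19 of 20 listed genes were measured, and all 19 were called higher, with a median of 1.37. Pole, the catalytic subunit of DNA polymerase epsilon, rose by 2.25, Prim1 by 1.90, Pola1 by 1.86 and Lig1 by 1.78. All 11 mitotic cyclins and kinases were called higher with a median of 2.09, led by Nek2 (3.12), Ccnb2 (3.11), Cdc20 (2.79) and Ccnb1 (2.56). The hexamer median of 1.95 thus lay between the medians of the fork genes and the mitotic genes, and the differences between these medians were not tested.

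The E2F and Rb genes did not move as 1 group. Of 13 measured, 7 were called higher and 1 lower, with a median of 0.222. Rbl1 (1.65), E2f7 (1.46), E2f8 (1.30) and Tfdp1 (0.89) had the largest increases. E2f7 and E2f8 encode repressors of the family, Rbl1 an Rb-related protein, and Tfdp1 the dimer partner of E2F factors. E2f1 (0.578), Tfdp2 (0.446) and E2f6 (0.222) were also called higher. E2f2 (-0.175), E2f3 (-0.369), E2f4 (-0.029), E2f5 (-0.207) and Rbl2 (-0.131) were not called. Rb1 lay between 9.99 and 10.6 in RAW-vector clones and between 8.90 and 9.83 in RAW-FoxQ1 clones, a log2 fold change of -1.02 (standard error 0.195, limma adjusted p = 0.00214).

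**Figure D5:**
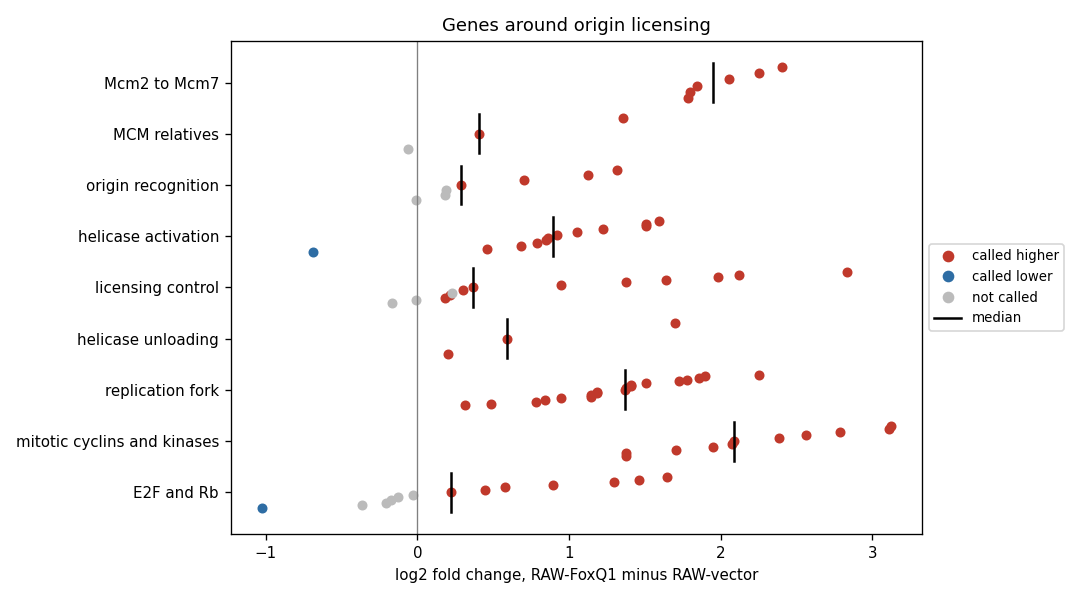
Log2 fold change, RAW-FoxQ1 minus RAW-vector (horizontal axis), of each gene in 9 lists, with called genes in red (higher) or blue (lower), genes not called in grey and the median of each list as a black line. Medians run from 0.222 for the E2F and Rb genes to 2.09 for the mitotic genes, and Gins3 and Rb1 are the 2 genes called lower.

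The genes most like the hexamer were found by the root mean square difference from the mean profile of Mcm2 to Mcm7 over the 9 clones, each gene centred on its RAW-vector mean. Rad54l, a recombination ATPase, was the closest of all non-members with a difference of 0.0719. It was followed by Nup85 (0.122), a nuclear pore gene, Fignl1 (0.124), an ATPase of recombination, and then Fbxo5 (0.155) and Rrm1 (0.155), the large subunit of ribonucleotide reductase. Their log2 fold changes were 2.04, 2.02, 1.92, 1.98 and 1.92. Against the same profile the subunits themselves differed by 0.114 (Mcm7) to 0.304 (Mcm6), Gmnn by 0.583, Mcm10 by 0.815, Cdt1 by 0.867 and Cdc6 by 1.52. All genes share the same 9 arrays, so this likeness is a description.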

How the data were processed

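Total RNA of 9 clones was measured on Affymetrix mouse genome arrays, 1 per clone. The authors grouped probes by Entrez gene with Custom CDF 12 and quantile normalized the arrays. RMA is named in the submitters' processing notes without a version. The log2 values deposited by the authors are, once sorted, identical on all arrays (median 7.49). Scanner files were not used, so background correction could not be varied, and the number of arrays limits the precision.

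The table held 16556 rows, of which 64 were control probe sets and not tested. RefSeq gene IDs or the platform annotation named 16258 of the remaining 16492 rows. All rows were fitted with lmFit and eBayes of limma 3.58.1 (R 4.3.3), group as the only term, and a gene was called where its p adjusted by Benjamini-Hochberg fell under 0.05. The labels name separate clones, so p-values measure the spread between clones of 1 line. For single values and pairs, exact permutation tests (two-sided) ran over the 126 divisions of 9 clones into 4 and 5. The fit was checked on simulated data.

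The members and lists were chosen with earlier results of these data known. The rule for named genes took all members, up to 4 called genes per direction of each list by size, Foxq1 and the 5 genes most like the hexamer. Cdc7, Dbf4, Dtl, Skp2, Ccne1, E2f1, E2f6, Tfdp2, Adgre1 and the genes named as not called were added after their values were seen. Alternatives comprised the methods' one-way ANOVA, trend and robust settings, array weights, a filter below the 40 percentile of mean signal, a log2 fold change of at least 1, covariates, means of repeated rows, medians for pairs, and leaving out each clone.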

Additional observations from a re-analysis of the deposited data

How the results depend on the processing

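In 144 alternative fits of the 9 called members none reversed, and 142 kept their call. The exceptions were Mcm2 and Cdt1 with the glycolysis and hypoxia mean as a covariate, as given above. The count of members called higher was 9 in every other setting except a log2 fold change of at least 1, where it was 7. Cdc6 turned to -0.036 without RAW-vector clone 6, in a range of -0.036 to 0.332 over the fits that left out a clone.

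Pathway genes called higher numbered 30, and 14 where the change had to reach 1 on the log2 scale. They were 26 with the poly-A and 23 with the glycolysis and hypoxia covariate. The 1 gene called lower became 2 with array weights and 0 with the poly-A covariate, the glycolysis and hypoxia covariate or the limit of 1 on the log2 scale, and ranged from 1 to 2 when a clone was left out (2 without RAW-vector clone 6). The cause was not tested.

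The 9 unequal pairs became 0 with medians in place of means, and ranged from 0 to 10 when a clone was left out. With 4 clones against 4 the smallest exact p of 0.0286 gives an adjusted p of 0.054 where 9 of 17 pairs reach it. Of 81 fits of the 9 pairs without a clone, 37 kept the call. Mcm2 minus Mcm3, not called, turned to 0.017 with medians and 0.008 without RAW-FoxQ1 clone 7.4. Mcm2 minus Mcm5, not called, turned to -0.028, -0.034 and -0.018 without RAW-vector clone 4, RAW-vector clone 7 and RAW-FoxQ1 clone 7.5, in a range of -0.034 to 0.08. No paired analysis was possible because the labels give no replicate number that pairs a clone of one group with a clone of the other, and the meaning of the 7 in clone 7 and clones 7.1 to 7.5 is not stated.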
